A study of Drosophila melanogaster with 2 samples.

Results

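The genes described here handle iron and zinc. They are the transferrin genes *Tsf1*, *Tsf2* and *Tsf3*, the ferritin genes *Fer1HCH*, *Fer2LCH* and *Fer3HCH*, the iron regulatory protein genes *IRP-1A* and *IRP-1B*, and the metal transporter genes *Mvl* and *foi*. A probe set, the group of probes that reads 1 transcript on an Affymetrix array, was taken as a member when its single annotated gene symbol, or a unique synonym of it, was on this list. All 10 genes were found, with 11 probe sets, among 10844 genes named on the array. The list was selected on gene function but with earlier results of these arrays known, in which *Tsf3* had stood out by its fold change, so the rises given here are a description and support nothing by themselves.

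Total RNA came from homozygous *mid* mutant embryos and from *yw* embryos of *Drosophila*, reared at 25 °C to 16 h after egg laying, with 1 array per genotype. *mid* encodes the T-box transcription factor Midline, the study's stock list names the allele *mid1* over the balancer *CyO*, and the mutants were recognised through a balancer that carries GFP. The *yw* stock is mutant for the pigmentation genes *yellow* and *white*. The labels name *yw* as the genotype of the other sample, which serves as the control here, although the Methods speak of heterozygous *mid* embryos. Whole embryos were used, so more RNA per cell and more cells of a type cannot be told apart, and neither can stock background, embryo age and an effect of *mid*.

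Insects move iron in the hemolymph on transferrins and store it in ferritin, a hollow shell built from heavy chains, which oxidise iron, and light chains, which help to lay down the mineral core. Unlike the mostly cytosolic ferritin of mammals, the main ferritin of flies passes through the secretory pathway. Iron regulatory proteins are cytosolic aconitases that lose an iron-sulfur cluster when iron is scarce, and in that form some of them bind ferritin mRNA and hold back its translation. Iron control of this kind acts on protein synthesis and need not appear in mRNA levels. Zinc enters the cytosol through transporters of the ZIP family and leaves it through those of the ZnT family.

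The authors' values are MAS5 signals, linear brightness values in arbitrary units. Their median was 43.3 on the *mid* mutant array and 150.2 on the *yw* array. The *mid* mutant array was therefore multiplied to reach the *yw* median, and all signals below are on that scale. Of the 14010 probe sets, 59.7% on the *mid* mutant array and 60.3% on the *yw* array lay above a signal of 97.6, which was used as a floor for dim signal and is no detection call. Genes that exceeded the floor in either genotype are called measured, and there were 7687 of them. *mid* itself read 56.8 in *mid* mutant and 49.3 in *yw* embryos, both below the floor, so the genotype could not be checked by it. The 3′ over 5′ signal, which is raised in degraded RNA, was 53.5 in *mid* mutant and 28.8 in *yw* embryos for actin and likewise higher in *mid* mutant embryos for eIF-4a and 18S rRNA, whereas for GAPDH it was 17.3 in *mid* mutant and 21.6 in *yw* embryos. On both arrays the 3′ signal was well above the 5′ signal for all of these transcripts, with ratios for eIF-4a of 63.3 in *mid* mutant and 50.8 in *yw* embryos. The part of this strong 3′ bias in the results was not tested, also for genes with a single probe set such as *Tsf3* and *foi*. There was 1 array for each genotype, so differences were not checked in replicates and carry no p-value. To give a technical scale, 287 genes with more than 1 probe set above the floor on both arrays were used. From the difference in log2 fold change between the brightest pair of each gene, an SD per probe set of 0.53 was derived. A difference between a pair of probe sets has a larger SD than this.

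In the *mid* mutant embryos, *Tsf3* and *foi* had signals far above those of the *yw* embryos, while ferritin chains, iron regulatory proteins, *Tsf2* and *Mvl* read nearly alike on both arrays. *Tsf3*, a transferrin-family gene, was 5.49-fold higher. *foi*, which encodes a ZIP-family zinc transporter, was at least 4.64-fold higher. *Fer1HCH* and *Fer2LCH*, the chains of the secreted ferritin, differed by 1.2-fold and 1.03-fold. *Tsf1* and *Fer3HCH* lay below the floor on both arrays and have no fold.

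Of the 10 genes, 8 were measured, and in *mid* mutant embryos 2 exceeded the *yw* signal by more than 2-fold, none was more than 2-fold lower and 6 were within 2-fold. Among all measured genes, 5.66% were more than 2-fold higher and 4.53% were more than 2-fold lower. As the list was composed with the value of *Tsf3* known, nothing is read from the share of its members that were higher. The median log2 fold change of the 8 genes was 0.10, beside 0.06 for all measured genes.

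The balance of calls over all genes depended on the scaling, whereas the members' counts moved, among the scalings run, with values as deposited alone. Median centring gave 435 genes higher and 348 lower in the *mid* mutant (55.6% higher). Scaling to the trimmed mean of the central 96% gave 331 genes higher and 433 lower (43.3% higher). Scaling to 9 spiked control probe sets gave 204 higher and 717 lower (22.1% higher). Without any scaling there were 19 higher and 6428 lower (0.295% higher). *Tsf3* and *foi* were higher under each of these scalings, though *Tsf3* fell short of 2-fold with values as deposited.

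**Figure D1:**
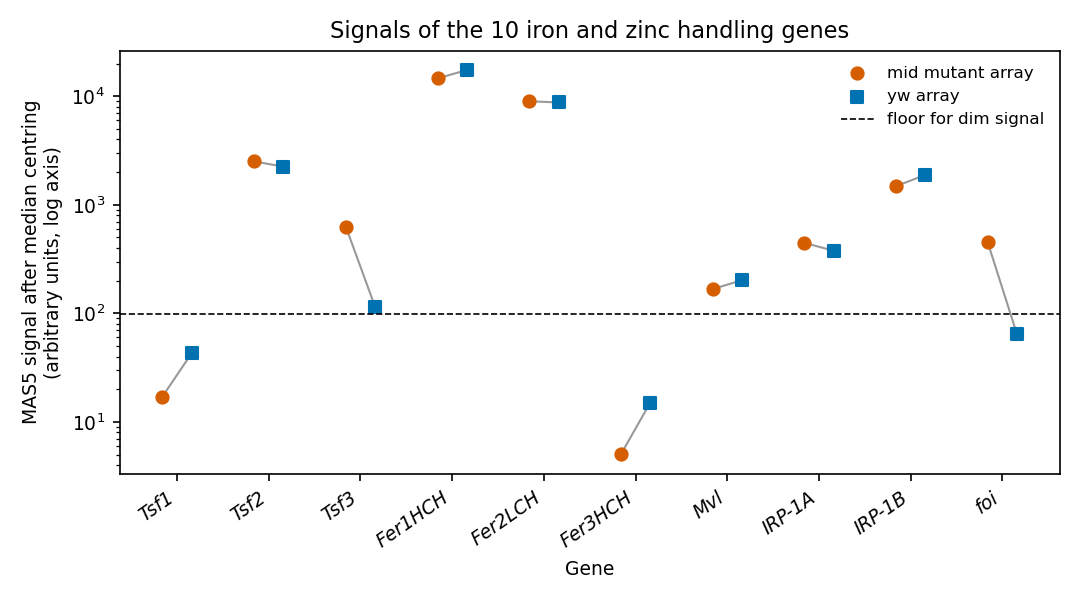
MAS5 signal of each of the 10 genes after median centring (log axis, arbitrary units), with the *mid* mutant array as orange circles, the *yw* array as blue squares and the floor of 97.6 as a dashed line. Each symbol is 1 array and the brightest probe set of the gene. *Tsf3* (628 in *mid* mutant and 114 in *yw*) and *foi* (452 in *mid* mutant and 64.0 in *yw*) have the widest gaps among the measured genes.

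Of the transferrins, 1 was called higher. *Tsf3* had a signal of 628 in *mid* mutant embryos and 114 in *yw* embryos, a log2 fold change of 2.46. Its probe set stood at percentile 79.1 of all signals on the *mid* mutant array and at percentile 43.5 on the *yw* array, and these ranks do not move when an array is multiplied by 1 factor. Of 6374 genes above the floor on both arrays, 8 had a larger rise. The signal in *yw* embryos was only 1.17 times the floor, so the size of the fold rests on a dim reading, and with the floor at the 60th percentile the rise was at least 2.75-fold. *Tsf3* has a single probe set with no other to set beside it.

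*Tsf2* encodes the fly melanotransferrin, a membrane-anchored transferrin that epithelia need to assemble septate junctions. It read 2508 in *mid* mutant embryos and 2245 in *yw* embryos, a log2 fold change of 0.16, well inside the disagreement between probe sets of a gene. *Tsf1* encodes the abundant iron carrier of the hemolymph. It read 17.1 in *mid* mutant and 43.0 in *yw* embryos, at percentile 11.9 and percentile 24.1 of all signals. Both readings lie in the dim range, so no fold is given for *Tsf1*.

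The chains of secreted ferritin were bright on both arrays. *Fer1HCH*, the heavy chain with the iron-oxidising centre, read 14566 in *mid* mutant embryos and 17445 in *yw* embryos, a log2 fold change of -0.26. *Fer2LCH*, the light chain, read 8978 in *mid* mutant embryos and 8759 in *yw* embryos, a log2 fold change of 0.04. Their probe sets stood between percentile 97.8 and percentile 99.0 of all signals, and whether these spots were saturated is not recorded in the values used. The 2 genes neighbour each other and overlap in span in the RefSeq gene table. Their fold changes were 0.30 apart on the log2 scale, less than the SD of 0.53 per probe set. No change in the balance of heavy to light chain mRNA was therefore detectable. *Fer3HCH* encodes a mitochondrial heavy chain that in adults is known mainly from the testis. It read 5.03 in *mid* mutant and 15.0 in *yw* embryos, at percentile 1.68 and percentile 7.83, so that the mitochondrial ferritin was dim on both arrays.

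Each iron regulatory protein gene differed between the arrays by less than the SD of 0.53 per probe set. *IRP-1A*, whose protein can bind iron-responsive elements in mRNA, had 446 in *mid* mutant and 377 in *yw* embryos by its brighter probe set, a log2 fold change of 0.24. Its other probe set read 95.3 in *mid* mutant and 100.6 in *yw* embryos, close to the floor on both arrays. It was the only member with 2 probe sets, and they lay on different sides of 0. *IRP-1B*, a close paralog that is an aconitase and is not known to bind iron-responsive elements, had 1483 in *mid* mutant and 1885 in *yw* embryos, a log2 fold change of -0.35. It was the lowest value among the measured members. The fold change of *IRP-1B* minus that of *IRP-1A* was -0.59 on the log2 scale. The SD of 0.53 is per probe set, and a gap between 2 probe sets spreads more widely. The gap is therefore not set apart from technical disagreement. With the median over its probe sets *IRP-1A* had 0.10 in place of 0.24, which narrows the gap, and with 1 array per genotype it has no test.

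Of the metal transporters, *foi* was called higher and *Mvl* was within 2-fold. *foi* encodes a ZIP transporter of the cell surface that is required for gonad coalescence and for fusion of tracheal branches in the embryo. It read 452 in *mid* mutant embryos and 64.0 in *yw* embryos, where it lies below the floor, which gives a rise of at least 4.64-fold. Without a floor the ratio was 7.07, and with the floor at the 60th percentile the lower bound was 1.98-fold, short of the threshold. Its percentile among all signals was 73.7 on the *mid* mutant array and 31.1 on the *yw* array. Of 603 genes below the floor in *yw* embryos alone, 16.4% had a lower bound of more than 2-fold, and 10 had a larger one than *foi*. *Mvl*, also known as *Malvolio*, encodes the fly NRAMP transporter of iron and manganese. It read 167 in *mid* mutant embryos and 202 in *yw* embryos, a log2 fold change of -0.27, and its percentile was 52.4 and 57.3.

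*Tsf3* and *foi* were the members whose signals were higher on the *mid* mutant array before any centring, although that array was the dimmer one. *Tsf3* was deposited at 181 for *mid* mutant and 114 for *yw* embryos, a ratio of 1.59. *foi* was deposited at 131 for *mid* mutant and 64.0 for *yw* embryos, a ratio of 2.04. These were 2 of the 9 member probe sets above the floor on at least 1 array. Over all such probe sets, 272 of 9263 (2.94%) were deposited with a higher signal for the *mid* mutant. Centring multiplied the *mid* mutant array by 3.46, so any probe set with a centred, unfloored ratio above that also reads higher as deposited. The deposited ratios of *Tsf3* and *foi* therefore restate the rises given above and lend them no further support. The size of the rise depends on the scaling.

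**Figure D2:**
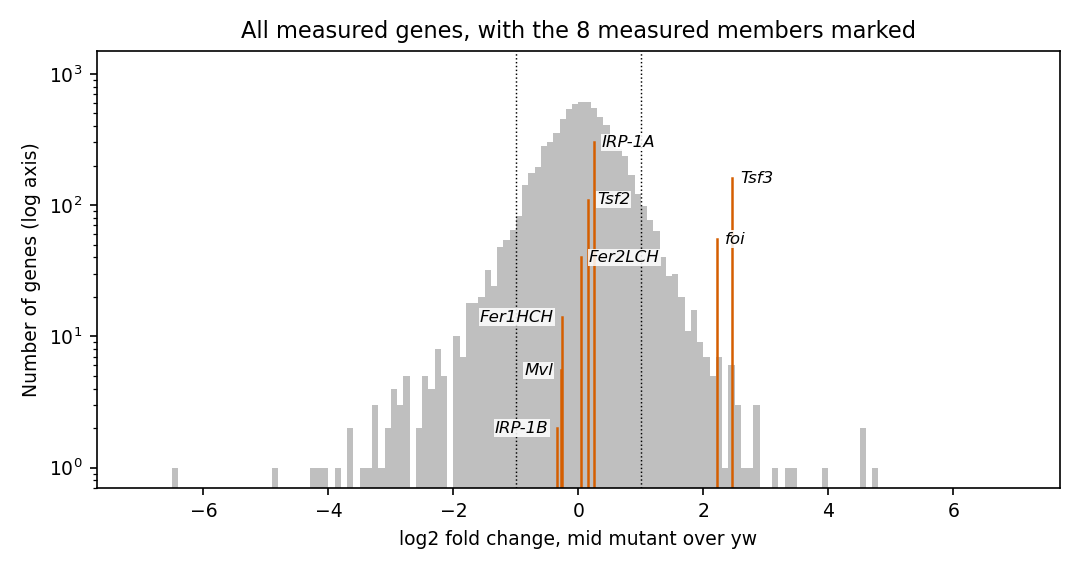
Log2 fold change of *mid* mutant over *yw* for all 7687 measured genes (grey histogram, bins of 0.1, logarithmic count axis), with the 8 measured members as orange lines whose heights are set only for legibility. Dotted lines mark 2-fold. *Tsf3* at 2.46 and *foi* at 2.21, a lower bound, lie in the upper tail and the other 6 between -0.35 and 0.24.

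The other 6 measured members ran from -0.35 (*IRP-1B*) to 0.24 (*IRP-1A*) on the log2 scale. The central 90% of all measured genes ran from -0.95 to 1.05. As the 6 are the members left once those past 2-fold were set aside, their narrower range is partly fixed by that choice. Of these 6 genes, 3 lay above 0 and 3 below. All 6 were within 1 SD of the disagreement between probe sets, so no direction is given for any of them. With quantile normalisation and loess *Fer2LCH* changed sign, to -0.09 and -0.08, while *Tsf2* stayed just above 0, at 0.02 with each. With values as deposited, less the shift of the median of all genes, *Tsf2* read -0.05 and *Fer2LCH* -0.18. That shift is taken after flooring and differs from the factor between the arrays, so these signs carry no weight.

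**Figure D3:**
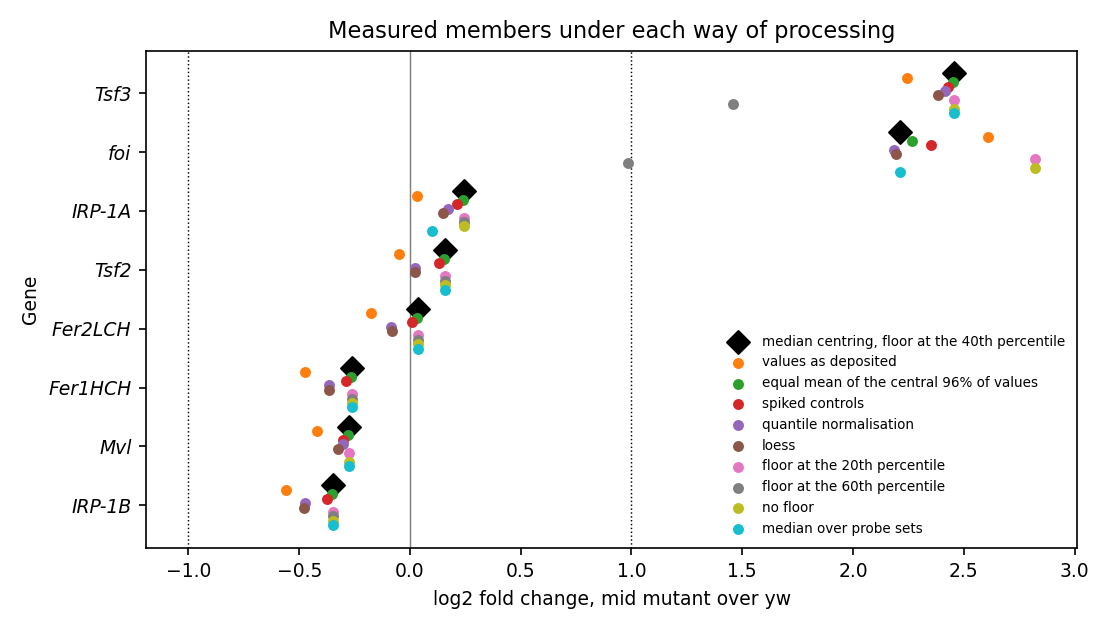
Log2 fold change of *mid* mutant over *yw* for the 8 measured members under median centring with the floor at the 40th percentile (black diamonds) and under 9 other ways of processing (coloured circles), with the shift of all measured genes removed where 1 factor rescales an array. *Tsf3* lay between 1.46 and 2.46 and *foi* between 0.98 and 2.82, while the other members remained within 2-fold (dotted lines).

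No other zinc transporter measured passed 2-fold after median centring. Of 16 ZIP and ZnT genes, 15 had a probe set and 13 of these were measured. None of the 13 was more than 2-fold higher or lower, and their median was 0.06, equal to that of all measured genes. *ZnT63C*, a zinc exporter, read 1321 in *mid* mutant and 1279 in *yw* embryos. *Catsup*, a ZIP protein of the secretory pathway, read 965 in *mid* mutant and 925 in *yw* embryos. *Zip88E* was just short of the threshold, with 390 in *mid* mutant and 199 in *yw* embryos (1.96-fold). With the spiked controls, *ZnT35C* was counted lower, and with a floor at the 20th percentile or no floor *Zip42C.2*, dim on both arrays here, was counted higher.

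Most genes that use iron were within 2-fold. The 6 measured genes of heme synthesis, among them *Alas*, the first enzyme of the pathway (2343 in *mid* mutant and 1783 in *yw* embryos), and *Urod* (1030 in *mid* mutant and 682 in *yw* embryos), were all within 2-fold, with a median log2 fold change of 0.25. The 10 genes listed for mitochondrial iron import and iron-sulfur cluster assembly were within 2-fold as well, with a median of -0.20. They include the scaffold gene *IscU* (4261 in *mid* mutant and 5333 in *yw* embryos). *bcn92*, among the genes the paper lists as down-regulated in the *mid* mutant, read 239 in *mid* mutant and 319 in *yw* embryos (1.33-fold lower). It was counted lower with values as deposited alone. The list also holds *mge* (4008 in *mid* mutant and 3920 in *yw* embryos). That gene encodes a subunit of the mitochondrial protein import machinery rather than a cluster assembly factor. Of the multicopper oxidases and ferric reductases, 5 were measured and none passed 2-fold, with *CG1275* at 2960 in *mid* mutant and 1912 in *yw* embryos and *nemy*, of the cytochrome b561 family, at 2636 in *mid* mutant and 1756 in *yw* embryos by its brighter probe set. Their median was 0.59, and 0.25 with the median over the probe sets of a gene. With the spiked controls, *CG8399* and the ferredoxin gene *Fdx2* were counted lower. With values as deposited, where the median of all genes itself moved by -1.58, all measured genes of these 3 lists and 12 of the 13 zinc transporter genes were counted lower.

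Among 9 measured genes of iron-linked enzymes and oxygen sensing, 2 were more than 2-fold higher in *mid* mutant embryos and none was lower. Over all measured genes, 5.66% were more than 2-fold higher. *sima*, which encodes the fly HIF-alpha subunit, a transcription factor whose stability is set by the iron-dependent prolyl hydroxylase Hph, read 389 in *mid* mutant and 118 in *yw* embryos (3.3-fold). *Hph* itself read 522 in *mid* mutant and 394 in *yw* embryos by its brightest probe set, and its other 2 probe sets read 144 in *mid* mutant against 146 and 168 in *yw* embryos. *ple*, the iron-dependent tyrosine hydroxylase of cuticle tanning and dopamine synthesis, was at the threshold, with 436 in *mid* mutant and 217 in *yw* embryos (2.01-fold), and was not counted higher with any other scaling run, namely the trimmed mean, quantile normalisation, loess, the spiked controls and values as deposited. *sima* was counted higher under each of these except values as deposited, where none of the 9 genes was higher and 7 were lower. With the floor at the 60th percentile neither gene was counted, and with no floor *mAcon2* was counted higher as well. *SdhB*, an iron-sulfur subunit of succinate dehydrogenase, read 5299 in *mid* mutant and 5296 in *yw* embryos, and the mitochondrial aconitase gene *mAcon1* read 13947 in *mid* mutant and 12051 in *yw* embryos.

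**Figure D4:**
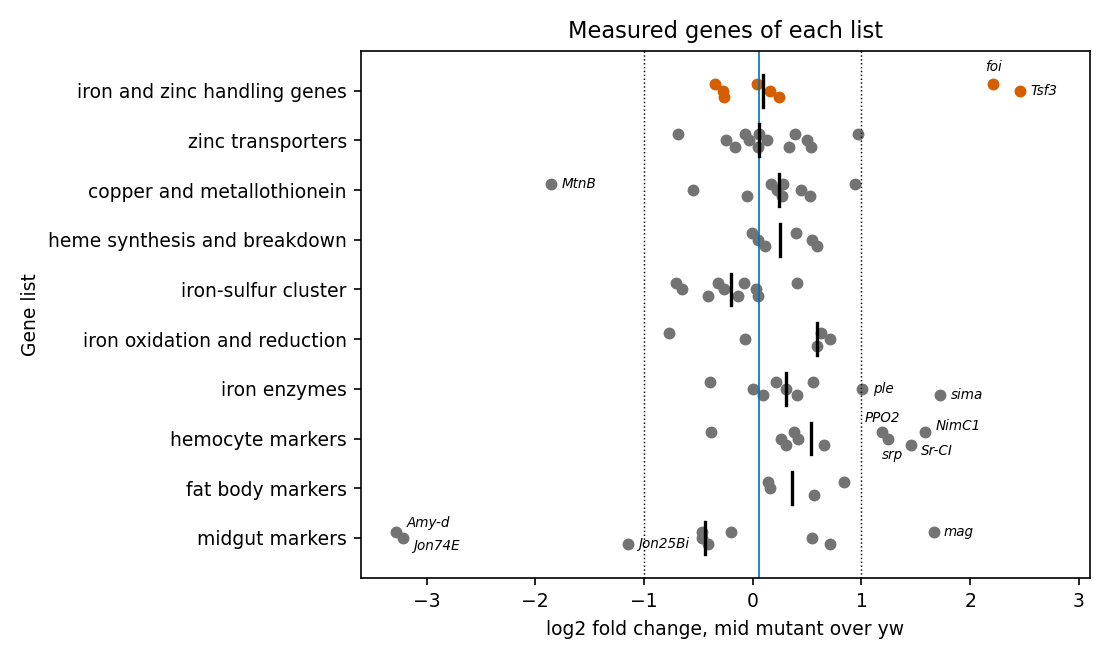
Log2 fold change of *mid* mutant over *yw* for every measured gene of each list (points), with the median of the list as a black bar, the median of all measured genes (0.06) as a blue line and 2-fold as dotted lines. Genes past 2-fold are named. The fold of *Tsf3* was known when its list was composed and that of *foi* is a lower bound, so their place beside the other lists is a description only. Genes below the floor on both arrays, such as *Zip42C.2*, are not shown.

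Some markers of blood cells and of midgut differed by more than 2-fold between the arrays, and their part in the values of the metal genes was not tested. Over all measured genes, 5.66% were more than 2-fold higher and 4.53% were more than 2-fold lower. Of 12 named hemocyte markers, 10 were measured, with a median log2 fold change of 0.53. In *mid* mutant embryos 4 of them were more than 2-fold higher, 6 were within 2-fold and none was lower. The higher ones are named next. These were *NimC1*, at least 3-fold higher and below the floor in *yw* embryos, *Sr-CI* (2.74-fold), *srp* (2.37-fold) and *PPO2* (2.28-fold), whose other probe set read 70.9 in *mid* mutant and 163.5 in *yw* embryos. The hemocyte genes *Hml* (519 in *mid* mutant and 677 in *yw* embryos) and *Pxn* (614 in *mid* mutant and 497 in *yw* embryos) were within 2-fold. The summed signal of the list was 27587 in *mid* mutant and 18892 in *yw* embryos. Most of it came from the collagen genes *Col4a1* (13807 in *mid* mutant and 8764 in *yw*) and *vkg* (10900 in *mid* mutant and 8188 in *yw*). Both were within 2-fold, so the sum says little about the other markers. The number counted higher depended on the processing. It was 1 with the floor at the 60th percentile (*PPO2*), 2 with the spiked controls (*NimC1* and *Sr-CI*) and 3 with the median over the probe sets of a gene, which left out *PPO2*. It was 5 with the floor at the 20th percentile or with no floor, which added *PPO1*, and without a floor *lz* was counted lower. With values as deposited none was higher and 4 were lower.

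Of 10 measured midgut markers, 3 digestive enzyme genes were more than 2-fold lower in *mid* mutant embryos and the lipase gene *mag* was 3.17-fold higher. The lower ones were *Amy-d* (9.71-fold), *Jon74E* (9.31-fold) and *Jon25Bi* (2.22-fold). The list had a median log2 fold change of -0.44, and over all measured genes 4.53% were more than 2-fold lower and 5.66% higher. With the floor at the 20th percentile or no floor *LysP* was counted higher as well, and with values as deposited none was higher and 8 were lower. In the median-centred values the summed signal of the list was 27462 in *mid* mutant and 47407 in *yw* embryos. The midgut regulator gene *GATAe* read 520 in *mid* mutant and 692 in *yw* embryos. Of 7 named fat body markers, 4 were measured and all were within 2-fold, with the lipoprotein gene *apolpp* at 8047 in *mid* mutant and 5443 in *yw* embryos and the fatty acid synthase gene *FASN1* at 5154 in *mid* mutant and 2882 in *yw* embryos, while *Lsp2*, *Fbp1* and *Fbp2* lay below the floor on both arrays. The summed signal of that list was 15130 in *mid* mutant and 10160 in *yw* embryos.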

How the data were processed

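RNA of 1 *mid* mutant and 1 *yw* embryo sample was biotin-labelled and measured on Affymetrix arrays. The authors deposited linear signal intensity values per probe set, and the submitters' processing notes name MAS5 as the tool. The version of MAS5, its scaling target, its detection calls and any genome build are not stated in those sources. Arrays were scaled to a common median, the floor was the 40th percentile of both arrays together, dimmer values were raised to it, and folds are *mid* mutant over *yw*. Where only 1 array exceeds the floor the fold is a lower bound. The brightest probe set stood for a gene, and more than 2-fold counted as higher or lower. Precision is limited by the number of arrays, and no test was possible, although the Methods set a p-value threshold too.

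Names came from the platform annotation of the array (12443 probe sets with a single symbol, 327 with several, 1240 with none), updated through a RefSeq gene table by gene ID, and list symbols were matched exactly or by a unique synonym. *IRP-1A* and *IRP-1B* appear there as *Irp-1A* and *Irp-1B*. No sequences are shown and planned promoter motif searches were not run, as no sequence table was used here. The members and lists were chosen with earlier results of these data known. Named were all members and, of other lists, up to 4 genes past 2-fold or else the pair with the highest signal. *Zip88E*, *ZnT35C*, *Zip42C.2*, *CG8399*, *Fdx2*, *bcn92*, *Hph*, *SdhB*, *mAcon1*, *mAcon2*, *Hml*, *Pxn*, *crq*, *eater*, *Col4a1*, *vkg*, *PPO1*, *lz*, *GATAe*, *LysP*, *Lsp2*, *Fbp1*, *Fbp2*, *MtnA*, *MtnC*, *MTF-1* and *Atox1* were added after their values were seen. The steps were tested on simulated arrays in which changes were planted in bright probe sets only. Calls that rest on a dim reading, such as those of *Tsf3* and *foi* in *yw* embryos, were not covered by it. Alternatives were values as deposited, the trimmed mean of the central 96%, the spiked controls (bacterial and phage transcripts), quantile normalisation, loess (span 0.3), a floor at the 20th percentile, at the 60th percentile or absent, the median over probe sets, and thresholds of 1.5-fold and 3-fold. The tools were matplotlib 3.10.9, statsmodels 0.14.6, pandas 2.3.3 and numpy 2.4.6 in Python 3.11.15.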

Additional observations from a re-analysis of the deposited data

How the results depend on the processing

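Of the 10 genes, *Tsf3* and *foi* were called higher in *mid* mutant embryos and none lower. With values as deposited 1 was higher (*foi*) and 6 were lower, as the median of all measured genes itself moved by -1.58 (19 genes higher and 6428 lower). Scaling to the trimmed mean moved that median by -0.11, and scaling to the spiked controls moved it by -0.30 (204 higher and 717 lower). With the floor at the 60th percentile 1 member was higher (*Tsf3*), as *foi* fell to a lower bound of 0.98 on the log2 scale, and 228 genes were higher and 166 lower. Lowering the floor to the 20th percentile made 882 genes higher and 901 lower. With no floor 1220 genes were higher and 1418 lower, and 2 members were called lower, *Tsf1* (log2 fold change -1.33) and *Fer3HCH* (-1.58), both dim on each array. Thresholds of 1.5-fold gave 1284 higher and 987 lower, and 3-fold gave 101 and 108. For the 6 members within 2-fold, all 53 values under an alternative, with the shift of all genes removed, lay within 1 SD of the value given. Most of these values could move little. Changes of floor left them as they were or unmeasured, and a single scaling factor is largely removed with the shift. The median over probe sets could alter *IRP-1A* alone, while quantile normalisation and loess could move each gene. No replicate could be left out, and no paired analysis was possible because each genotype has 1 array.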

Other observations

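Copper and metallothionein genes, which share regulators with the zinc genes, mostly read alike on both arrays. In *mid* mutant embryos 1 of 10 measured genes was more than 2-fold lower and none was higher, beside 4.53% lower over all measured genes. *MtnB*, a metallothionein gene, read 568 in *mid* mutant and 2052 in *yw* embryos (3.61-fold lower), and was lower under every scaling and floor run. *MtnA*, the most strongly expressed of the family in many fly tissues, read 39075 in *mid* mutant and 33515 in *yw* embryos. *MtnC* read 4.02 in *mid* mutant and 143 in *yw* embryos, where it was near the floor, so that its lower bound was 1.46-fold and it was not counted lower, although it was with a floor at the 20th percentile, with no floor and with values as deposited. *MTF-1*, which encodes the metal-responsive transcription factor of the metallothionein genes, read 3062 in *mid* mutant and 3173 in *yw* embryos by its brighter probe set, and *Atox1*, a copper chaperone gene, read 1260 in *mid* mutant and 657 in *yw* embryos (1.92-fold).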
